A study of Homo sapiens with 4 samples.

Results

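The genes described here make fatty acids and cholesterol or control that synthesis. They are 34 human genes: the regulators SREBF1, SREBF2, SCAP, INSIG1 and INSIG2, the enzymes that build, desaturate and elongate fatty acids, the enzymes that lead from acetyl-CoA units to cholesterol, and LPIN1. A region of open chromatin was assigned to a gene when it overlapped the RefSeq GRCh38 span of that gene extended by 10 kb on both sides. By this rule 151 of the 125986 regions in the authors' deposited table belonged to the 34 genes. All 34 genes had at least 1 region, the count ran from 1 (CYP51A1) to 16 (LPIN1) with a median of 3.0 per gene, and 2 regions were shared by 2 of the genes.

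The regions come from ATAC-seq, an assay that maps open chromatin by letting Tn5 transposase insert sequencing adapters where DNA is exposed. The cells were A375, an established human melanoma line, kept in DMEM with serum, and the labels name no genetic change to them. The compared groups were 2 libraries from cells given isopropanol, the solvent, and 2 libraries from cells given 1 mM octanoate, a medium-chain fatty acid, both for 48 h. The labels do not say whether the 2 libraries of a group came from separate cultures, so the p-values measure the spread between libraries, which may be technical. The authors' deposited table holds only the result of their DESeq2 comparison: for each region its mean in normalized reads across all 4 libraries, the log2 fold change of octanoate over vehicle, its standard error, the p-value and the Benjamini-Hochberg adjusted p-value. Values of single libraries are not part of it, so the 2 group means given below were computed from the mean and the fold change. Of 4 melanoma lineage genes whose start could be placed, MITF and DCT had a listed region there, with means of 168 and 30.0 normalized reads in the authors' deposited table, and MLANA and TYR had none. KRT5, PTPRC and ALB, markers of keratinocytes, leukocytes and hepatocytes, had none either.

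As background, cells make saturated fatty acids from cytosolic acetyl-CoA and then lengthen them or add double bonds, and they make cholesterol from the same precursor through mevalonate, isoprenoids, squalene and lanosterol. Both routes are switched on by the SREBP transcription factors, which are made as membrane proteins, escorted to the Golgi by SCAP when sterols are low, and held back in the endoplasmic reticulum by INSIG proteins when sterols are plentiful. At their target promoters SREBPs bind the sterol regulatory element, usually beside sites for NF-Y, which binds CCAAT, and for Sp1, which binds GC boxes.

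The promoters of 6 of these genes, picked by motif or by fold change, are printed as examples. SREBF2 is the only one of the 31 genes with a promoter entry whose window held the sterol regulatory element searched. FASN, FDFT1 and SQLE have no entry and were not searched. HMGCS1, MVK, MSMO1 and NSDHL are cholesterol enzymes whose start regions had deposited log2 fold changes among the higher ones of the genes, and ELOVL6, a fatty acid elongase, had the lowest among tested regions. Each sequence runs 5′ to 3′ on the strand of its gene, from 250 bases before to 50 bases after the start of transcription, and is taken from RefSeq GRCh38.p14. Capitals mark matches, on either strand, to 3 motifs. The sterol regulatory element was searched as TCACNCCAC, with N for any base. The box bound by NF-Y was searched as CCAAT. For the box bound by Sp1 the letters were GGGCGG, and these 3 motifs do not contain each other. The windows lie at chr22:41832855-41833154 on the plus strand for SREBF2, chr5:43313363-43313662 on the minus strand for HMGCS1, chr12:109573544-109573843 on the plus strand for MVK, chr4:165327419-165327718 on the plus strand for MSMO1, chrX:152830813-152831112 on the plus strand for NSDHL and chr4:110198566-110198865 on the minus strand for ELOVL6. HMGCS1 has 2 annotated starts, and the upstream one is shown.
SREBF2: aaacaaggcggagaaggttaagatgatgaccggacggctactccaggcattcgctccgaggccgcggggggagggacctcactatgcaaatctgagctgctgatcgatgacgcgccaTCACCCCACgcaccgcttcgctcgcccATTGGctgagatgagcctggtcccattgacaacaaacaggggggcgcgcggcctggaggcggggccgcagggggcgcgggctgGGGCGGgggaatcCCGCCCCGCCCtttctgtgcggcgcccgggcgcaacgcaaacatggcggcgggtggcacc
HMGCS1: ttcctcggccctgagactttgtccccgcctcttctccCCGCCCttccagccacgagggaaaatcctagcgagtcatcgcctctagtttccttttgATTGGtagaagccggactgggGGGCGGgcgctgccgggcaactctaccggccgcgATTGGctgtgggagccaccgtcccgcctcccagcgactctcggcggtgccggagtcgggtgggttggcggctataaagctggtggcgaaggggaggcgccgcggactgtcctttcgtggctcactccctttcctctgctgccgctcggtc
MVK: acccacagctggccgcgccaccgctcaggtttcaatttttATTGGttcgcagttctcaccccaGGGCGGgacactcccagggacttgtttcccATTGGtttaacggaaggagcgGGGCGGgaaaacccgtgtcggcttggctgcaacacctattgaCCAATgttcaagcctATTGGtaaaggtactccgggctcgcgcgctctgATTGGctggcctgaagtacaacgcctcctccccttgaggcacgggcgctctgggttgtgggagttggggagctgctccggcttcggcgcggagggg
MSMO1: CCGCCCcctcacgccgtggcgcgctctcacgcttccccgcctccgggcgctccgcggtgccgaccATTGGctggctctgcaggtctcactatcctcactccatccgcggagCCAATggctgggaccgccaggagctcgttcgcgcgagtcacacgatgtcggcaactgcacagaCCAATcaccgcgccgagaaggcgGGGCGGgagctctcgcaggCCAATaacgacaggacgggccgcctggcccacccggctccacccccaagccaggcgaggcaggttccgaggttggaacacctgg
NSDHL: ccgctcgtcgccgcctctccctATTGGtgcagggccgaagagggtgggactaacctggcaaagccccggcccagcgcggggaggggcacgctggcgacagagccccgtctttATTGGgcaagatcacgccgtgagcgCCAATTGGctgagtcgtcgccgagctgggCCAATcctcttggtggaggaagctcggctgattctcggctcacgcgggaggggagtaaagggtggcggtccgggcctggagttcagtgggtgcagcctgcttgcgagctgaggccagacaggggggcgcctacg
ELOVL6: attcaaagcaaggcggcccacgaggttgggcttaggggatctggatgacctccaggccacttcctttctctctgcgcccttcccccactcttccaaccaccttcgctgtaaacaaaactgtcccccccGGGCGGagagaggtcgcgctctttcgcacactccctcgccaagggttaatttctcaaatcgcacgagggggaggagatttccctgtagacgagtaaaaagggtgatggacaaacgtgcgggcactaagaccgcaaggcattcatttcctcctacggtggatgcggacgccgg

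Among the 31 genes with a promoter entry, 23 had at least 1 CCAAT in the window of any start (74.2%, against 42.1% of 15843 protein-coding genes and 48.2% of the 6301 genes whose start lay within 1 kb of a tested region, a term explained below). A GC box was present in 29 of 31 (93.5%, against 64.3% and 80.9%), and the 2 without it were ELOVL5 and NSDHL. The full element TCACNCCAC stood only in SREBF2 (3.23%, against 1.51% and 1.40%), while its shorter core CACNCCAC, which overlaps the full element, stood in 6 of 31: SREBF2, INSIG1, ACACA, SCD, IDI1 and SC5D (19.4%, against 7.98% and 7.67%). The E-box CACGTG stood in 5 of 31 (16.1%, against 10.9% and 13.2%). The printed sequences show how the CCAAT boxes were spread: MVK and NSDHL each had 5, MSMO1 had 4, the shown HMGCS1 window had 2, SREBF2 had 1 and ELOVL6 had 0. Among genes not printed, LPIN1 and PMVK had 0 boxes with start log2 fold changes of 0.37 and 0.27. EBP had 3 with 0.09, and ELOVL5 had 2 with -0.16. A relation between boxes and fold change was not tested. By role, at least 1 box stood in 12 of 14 cholesterol enzymes with an entry (85.7%) and in 9 of 11 fatty acid enzymes (81.8%). Both shares lay above the 42.1% of all protein-coding genes, so the 2 roles lay apart mainly in repeated boxes. Repeats of 3 or more were found in 7 of 14 cholesterol enzymes with an entry (50.0%: MVK, NSDHL, MSMO1, MVD, IDI1, FDPS and EBP), in 0 of 11 fatty acid enzymes, in 4.72% of all protein-coding genes and in 7.55% of those with a tested start region. In NSDHL and IDI1 a CCAAT on one strand shared bases with a CCAAT on the other; with such a pair counted once, 6 of 14 cholesterol enzymes (42.9%) had 3 or more, against 4.59% of all genes and 7.40% of those with a tested start region. The minimum of 3 was chosen after the counts were seen, and no test was made. The promoters were also rich in G and C, with a median of 67.7% when the windows of a gene's starts were averaged (single windows ran from 45.3% to 82.3%, both in ACACA), against 62.3% over all genes and 65.0% over those with a tested start region.

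The starts of these genes were largely open in A375 cells. All 31 genes with an annotated start in the promoter table had a listed region within 1 kb of it, against 11875 of 15843 protein-coding genes (75.0%). The authors' adjusted p-value was computed only where the mean reached 63.8 normalized reads. These 11185 regions are called tested regions here. A start region was tested in 21 of the 31 genes (67.7%, against 39.8%). Per kilobase of region, the median mean signal of the genes' start regions was 67.3 normalized reads, against 52.5 for the start regions of all protein-coding genes. Within the set it was 88.7 for the 16 cholesterol enzymes' regions and 51.0 for the 11 of fatty acid enzymes, with FASN, FDFT1 and SQLE, which have no annotated start in the promoter table, given by a region at an end of their spans. HMGCS1, which joins acetyl-CoA to acetoacetyl-CoA at the head of the mevalonate pathway, had the highest value per kilobase with 198, and NSDHL and INSIG1 followed with 155 and 141.

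**Figure D1:**
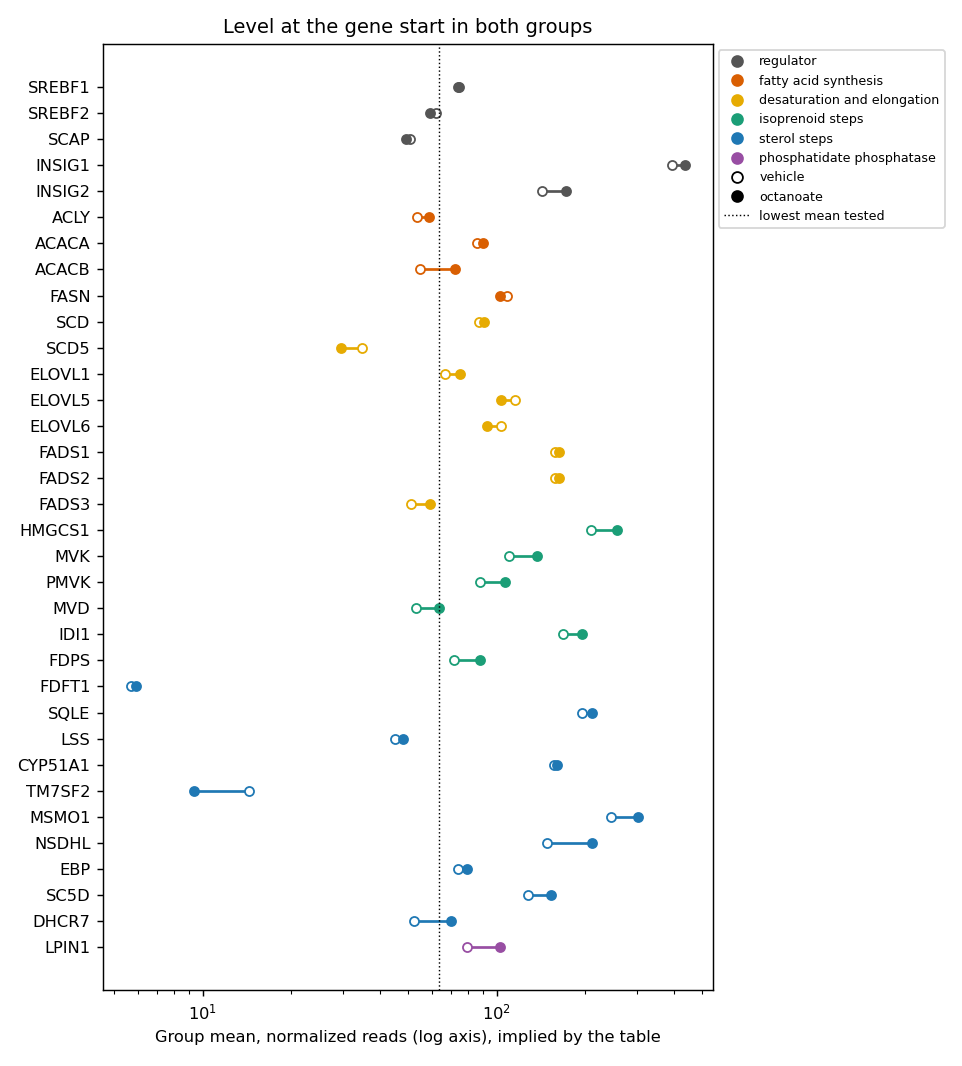
Group means at the start of each gene in vehicle (open) and octanoate (filled), in normalized reads (log axis), computed from the mean and fold change of the authors' deposited table, by role; the dotted line is the lowest tested mean (63.8). INSIG1 (394 and 436), MSMO1 (244 and 303) and HMGCS1 (209 and 257) are the highest, FDFT1 and TM7SF2 the lowest. FASN, FDFT1 and SQLE are shown by a region at a gene end, and FADS1 and FADS2 share 1 region. FDFT1, whose start was not placed, also has a stronger region inside its span, with a mean of 118, that is not drawn.

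No region of these genes passed the deposited DESeq2 adjusted p of 0.05. The count was 0 of 33 tested regions, where 1.02% of all tested regions passed. At an unadjusted p under 0.05 in the authors' deposited table, 4 of the 33 were higher with octanoate (12.1%, against 14.8% of all tested regions) and 0 were lower (against 0.107%). The 4 were the start regions of NSDHL, MSMO1 and HMGCS1 and a region upstream of the third start of LPIN1. Of the 118 regions below the tested signal, 3 had an unadjusted p under 0.05 with a higher value (2.54%, against 2.48%). Both shares lay near those of the table as a whole, and no tool other than the authors' DESeq2 could be run on it.

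The whole table leaned toward octanoate, with a median log2 fold change of 0.23 over nuclear regions and 0.19 over tested regions. The 151 regions had a median of 0.17, with quartiles of -0.02 and 0.40 and a range from -1.08 to 1.37, which became -0.02 when the tested median was subtracted. The 33 tested regions ran from -0.16 to 0.58 with a median of 0.15; 28 lay above 0 (84.8%, against 85.7% of all tested regions), 14 lay above the tested median and 19 below it. The 30 start regions (the strongest of each gene, with FADS1 and FADS2 sharing 1) had a median of 0.16, close to the 0.14 of start regions of all protein-coding genes. Regions farther than 1 kb from any start of these genes had a median of 0.19 (114 regions). The table's regions over 1 kb from any start had 0.25. Among tested regions only, the 2 medians were 0.09 (10 regions, 3 of them above the tested median) and 0.23. Of those 10 regions, 3 had the start of another gene within 1 kb. For 32 of the 33 tested regions the 95% interval from the authors' standard error held the tested median of 0.19, and NSDHL was the exception.

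**Figure D2:**
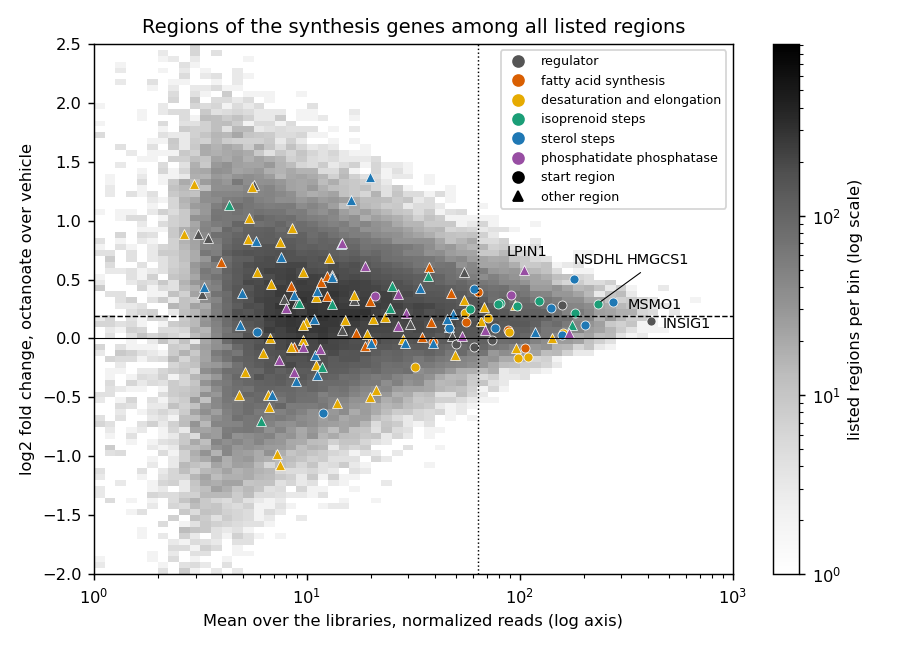
Deposited log2 fold change of octanoate over vehicle against mean normalized reads (log axis); grey shading counts all listed regions on a log scale and coloured marks are the regions of the synthesis genes by role, with gene-end regions of FASN, FDFT1 and SQLE drawn as start regions. The dotted line marks the lowest tested mean (63.8) and the dashed line the median of tested regions (0.19); the marks lie within the grey cloud, whose spread narrows with signal.

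**Figure D3:**
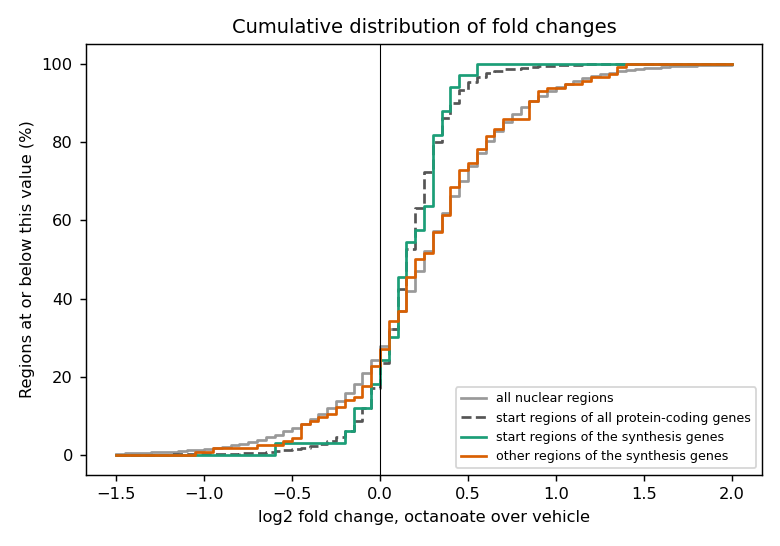
Cumulative share of regions by deposited log2 fold change, for start regions (with the gene-end regions of FASN, FDFT1 and SQLE) and other regions of the synthesis genes, for start regions of all protein-coding genes and for all nuclear regions. Start regions spread less than other regions in both sets, and the curves of the synthesis genes run close to those of all genes, with start medians of 0.16 (0.14 with the 3 gene ends) and 0.14.

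Among the regulators, the start regions of the 2 SREBP genes and of SCAP had log2 fold changes between -0.07 and -0.01. SREBF1, the gene of the SREBP that chiefly drives fatty acid synthesis, had a start region at chr17:17836049-17838544 with implied means of 74.4 normalized reads in vehicle and 73.8 in octanoate and a log2 fold change of -0.01 ± 0.25 (the authors' standard error, as after every ± below). Its 6 other regions had values above 0, from 0.02 to 1.30, on means of 3.45 to 48.0 normalized reads. SREBF2, whose product chiefly drives cholesterol synthesis, had a start region with a mean of 60.7 and a log2 fold change of -0.07 ± 0.28, and SCAP one with a mean of 50.0 and -0.05 ± 0.30. Both were below the tested signal.

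The INSIG genes encode the proteins that retain SCAP and SREBP. INSIG1 had the strongest region of all 34 genes, at chr7:155296710-155299654, with a mean of 415 normalized reads in the authors' deposited table. Summed over the libraries, that mean is 3243 to 4015 sequenced reads. Its implied means were 394 in vehicle and 436 in octanoate, a log2 fold change of 0.15 ± 0.12 with a DESeq2 adjusted p of 0.569. A weaker region 6.32 kb upstream had 43.9 and 65.0, a log2 fold change of 0.57 ± 0.28 with an unadjusted p of 0.0458, and was not tested. INSIG2 had a start region with a mean of 157 and a log2 fold change of 0.28 ± 0.17. The 2 tested INSIG start regions thus lay on either side of the tested median, within their errors of it.

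Of the 4 enzymes that build fatty acids, FASN, ACACA and ACLY had values below the tested median at their starts (for FASN, at a gene end), and ACACB a value above it. FASN is the synthase that makes palmitate. A region overlapping the end of its span, at chr17:82097255-82099327, had implied means of 109 in vehicle and 103 in octanoate, with a log2 fold change of -0.08 ± 0.21. ACACA, the acetyl-CoA carboxylase that supplies malonyl-CoA for synthesis, had 0.07 ± 0.22 on a mean of 87.8, and a weaker start that lies beside the start of TADA2A had -0.03 on 39.2. ACLY, which makes cytosolic acetyl-CoA from citrate, had 0.14 ± 0.29 on a mean of 56.2 and was not tested.

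ACACB, the carboxylase isoform of the mitochondrial surface, had the highest start value of these 4 genes. Its start region at chr12:109154159-109155399 had implied means of 54.8 and 71.8 and a log2 fold change of 0.39 ± 0.27. Its mean of 63.3 put it just under the lowest tested mean of 63.8. The gene has 2 annotated starts and 7 regions with a median of 0.39, of which 6 lay above 0, and the regions within 500 kb had a median of 0.34.

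Among the desaturases and elongases, all 5 tested start regions lay below the tested median. SCD, the main stearoyl-CoA desaturase, had implied means of 87.3 and 90.5 at its start, chr10:100345578-100347514, a log2 fold change of 0.05 ± 0.22. FADS1 and FADS2, which desaturate polyunsaturated fatty acids, start head to head in 1 region at chr11:61814910-61817485 with a mean of 159.8 and a log2 fold change of 0.05 ± 0.17. FADS3, a paralog beside them, had 0.22 ± 0.28 on a mean of 55.0. A further region in the window of FADS1, which holds the starts of FEN1 and TMEM258, had -0.08 on a mean of 96.1.

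ELOVL genes encode the enzymes that add carbon units to fatty acids, each with its own range of substrates. ELOVL5 and ELOVL6 had the lowest values among the 33 tested regions. At ELOVL6, which elongates palmitate, the start region at chr4:110196179-110199219 had implied means of 103 in vehicle and 92.3 in octanoate, a log2 fold change of -0.16 ± 0.21 with a DESeq2 adjusted p of 0.755. ELOVL5 had 115 and 103, with -0.16 ± 0.20 and an adjusted p of 0.745 by DESeq2. Neither differed from 0 by more than its standard error, and ELOVL1 had 0.17 ± 0.26 on a mean of 70.7.

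Away from its start ELOVL6 showed the opposite sign. Its 7 other regions, all inside the gene, ran from 0.16 to 1.31, but their means were 2.95 to 20.4 normalized reads and none was tested. SCD5, a second stearoyl-CoA desaturase that in adults is mainly found in brain and pancreas, had 15 regions with 6 above and 9 below 0, a median of -0.01, and no tested region. Its start region had a mean of 32.1 and -0.24 ± 0.37. The plot of values along 4 genes shows these regions in their order.

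**Figure D4:**
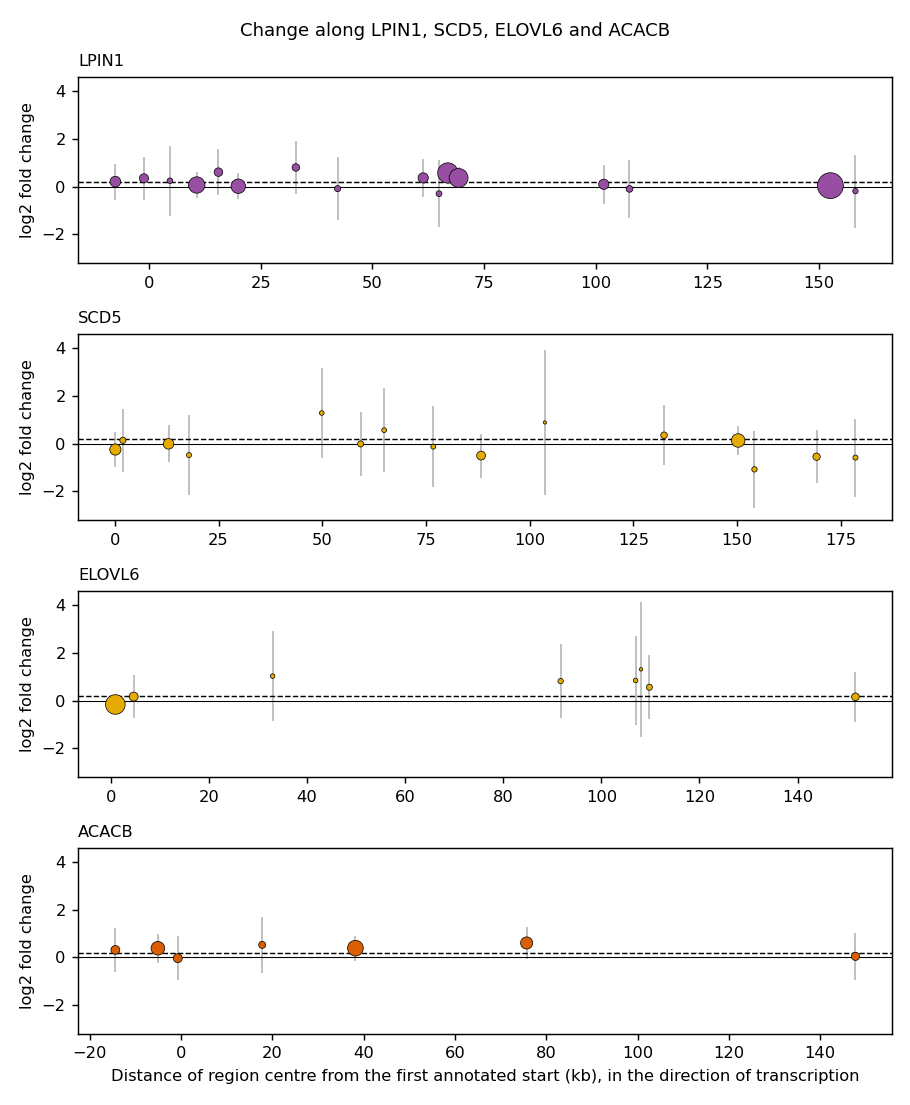
Deposited log2 fold change with its 95% interval for each region of LPIN1, SCD5, ELOVL6 and ACACB against distance in kb from the first annotated start, in the direction of transcription; marker size grows with the mean signal and the dashed line is the tested median (0.19). Intervals are widest at the small markers, and the LPIN1 region 1.69 kb from the third start (0.58) is the highest tested point.

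The enzymes of the isoprenoid steps showed the most even values at tested starts, among roles with more than 1 such start. Over all 16 of their regions, most of them not tested, values ran from -0.70 to 1.13. All 5 genes with a tested start region (HMGCS1, MVK, PMVK, IDI1 and FDPS) had a log2 fold change between 0.21 and 0.32 there, with a median of 0.30, and all 5 lay above the tested median by 0.03 to 0.13. HMGCS1 had implied means of 209 normalized reads in vehicle and 257 in octanoate at chr5:43312883-43314060, a log2 fold change of 0.30 ± 0.14 with an unadjusted p of 0.0350 and a DESeq2 adjusted p of 0.292. The regions within 500 kb of this gene had a median of 0.06. For the other isoprenoid enzymes such medians lay closer to the value at the start, with 0.33 around MVK, 0.29 around MVD, 0.27 around IDI1, 0.23 around PMVK and 0.21 around FDPS.

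MVK, the mevalonate kinase, had 0.32 ± 0.19 on a mean of 123 at chr12:109573042-109574008, a region it shares with the start of MMAB. PMVK, which phosphorylates the product of MVK, had 0.27 ± 0.21 on a mean of 97.2. IDI1, which interconverts the isoprenoid building blocks, had 0.21 ± 0.16 on a mean of 181 at its stronger start. Its other start, beside that of WDR37, had 0.30 ± 0.23 on a mean of 80.8. FDPS, which condenses those blocks into farnesyl diphosphate, had 0.30 ± 0.23 on a mean of 79.4. MVD, the decarboxylase between PMVK and IDI1, had 0.25 ± 0.29 on a mean of 58.4 and was not tested. The unadjusted p of each of these regions apart from HMGCS1 was 0.0941 or more.

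The sterol steps were less even. NSDHL, a dehydrogenase that removes methyl groups from the sterol ring on the endoplasmic reticulum, had the region with the smallest p of all 151, at its start, chrX:152830270-152831423. Its implied means were 148 normalized reads in vehicle and 211 in octanoate, a log2 fold change of 0.51 ± 0.16 with a 95% interval from 0.20 to 0.82. The unadjusted p was 0.00132 and the DESeq2 adjusted p 0.0721, and the mean is 1402 to 1736 sequenced reads in all.

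Several values moved together with the one at NSDHL. With the tested median subtracted its log2 fold change was 0.32, with an unadjusted p of 0.0422 and an adjusted p of 1.00. The start of CETN2 lies within 1 kb of the same region, so the region belongs to both genes. The 30 regions within 500 kb of NSDHL had a median of 0.49, the highest such median beside any of the 34 genes. The region lies 3.20 Mb from the outermost listed region of chromosome X, and tested regions within 5 Mb of such an end had a median of 0.30 in the table, against 0.18 farther in. The 5 tested regions of the 34 genes that near to an end had a median of 0.21 and ran from -0.08 to 0.51. They belong to NSDHL, IDI1, INSIG1 and FASN. The part of the neighbourhood in the value at NSDHL was not tested. All 4 regions of the gene lay above 0, and 1 of them, 11.8 kb into the gene, had 1.17 ± 0.56 on a mean of 16.1.

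MSMO1, the methyl sterol oxidase that acts just before NSDHL, had implied means of 244 and 303 normalized reads at chr4:165325504-165328414. The log2 fold change was 0.31 ± 0.13 with an unadjusted p of 0.0207 and a DESeq2 adjusted p of 0.232. Regions within 500 kb of MSMO1 had a median of 0.18. The other sterol enzymes with a tested start region had smaller values. SC5D, the sterol desaturase, had 0.26 ± 0.19 on a mean of 140.3. EBP, the isomerase, had 0.09 ± 0.24 on 76.5. CYP51A1, the lanosterol demethylase, had 0.03 ± 0.17 on 159, in its only region.

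SQLE, the squalene epoxidase and a slow step of the pathway, and FDFT1, the squalene synthase, are given by regions at an end of their spans. SQLE had implied means of 195 and 211 and a log2 fold change of 0.12 ± 0.16 there. A second SQLE region, 9.47 kb beyond a gene end, had the largest log2 fold change of all 151 regions, 1.37 ± 0.49 with an unadjusted p of 0.00466, on a mean of only 19.7 normalized reads, and was not tested. FDFT1 had 0.06 ± 0.90 on a mean of 5.81 at its end. In its 1 tested region, inside the span, it had 0.05 ± 0.20 on a mean of 118. The start of FDFT1 was not placed, so which of its regions holds it is not known.

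The remaining 3 sterol enzymes had no tested region. DHCR7, the last reductase of the pathway, had 0.42 ± 0.28 on a mean of 60.9 at its start. LSS, which closes the ring to lanosterol, had 0.09 ± 0.31 on 46.6. TM7SF2, a sterol reductase, had -0.63 ± 0.61 on 11.8. None of these 3 lay more than 2 standard errors from 0.

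**Figure D5:**
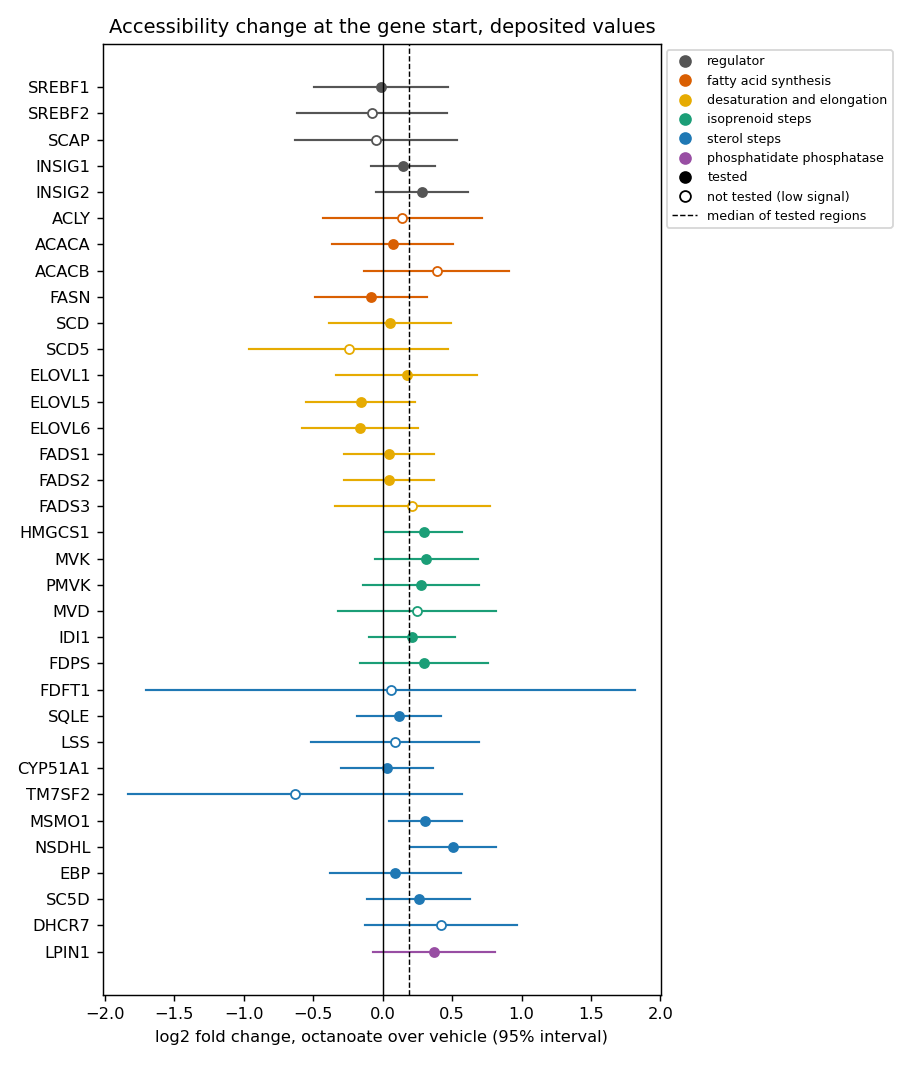
Deposited log2 fold change of octanoate over vehicle at the start of each gene, with the 95% interval from the authors' standard error, by role; open marks were not tested and the dashed line is the tested median (0.19). The intervals of NSDHL, MSMO1 and HMGCS1 lie above 0, and only that of NSDHL lies above the dashed line; FASN, FDFT1 and SQLE are shown by a region at a gene end.

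Set side by side, and with the gene-end regions of SQLE and FASN included, the tested start regions of the cholesterol enzymes had a median log2 fold change of 0.27 (11 regions, 0.03 to 0.51) and those of the fatty acid enzymes a median of 0.05 (7 regions, -0.16 to 0.17). All 11 of the former lay above 0 and 8 above the tested median, whereas 4 of 7 of the latter lay above 0 and 0 above the tested median. Of the tested start regions of all protein-coding genes, 42.7% lay above the tested median and their own median was 0.16, which ELOVL1 alone of those 7 exceeded. Relative to the tested median the medians were 0.09 and -0.14. The tested region of FDFT1 inside its span, with 0.05, is not among the 11. The ranges overlapped, since CYP51A1, EBP and SQLE lay below the value of ELOVL1, and ACACA, SCD and the shared FADS1 and FADS2 region also lay above that of CYP51A1. Over all start regions, tested or not, 10 of 16 cholesterol enzymes' regions and 2 of 11 fatty acid enzymes' regions lay above the tested median. The latter were those of ACACB, whose mean was just under the lowest tested one, and FADS3. Of the start regions of all protein-coding genes, tested or not, 39.6% lay above the tested median. The surroundings differed in the same direction. The medians of regions within 500 kb of these genes had a median of 0.23 over the 11 cholesterol enzymes (0.06 around HMGCS1 to 0.49 around NSDHL) and 0.14 over the 8 fatty acid enzymes (0.08 around FASN to 0.26 around SCD). The start lay above its own surroundings in 5 of the 11 (median difference -0.01) and in 0 of the 8 (median difference -0.12). These surroundings include regions that were not tested and regions away from starts. In the table, regions over 1 kb from any start had a median of 0.25, against 0.14 for start regions. Beside tested surrounding regions only, the starts of IDI1 (0.21 against 0.17, 1 region) and SC5D (0.26 against 0.25, 4 regions) also lay above. These genes are not all separate loci. FADS1 and FADS2 share 1 start region and count as 2 of the 8, and the surroundings of PMVK and FDPS overlap. The part of the surroundings in the difference between the roles was not tested. The roles were assigned with the values known, so the difference is a description and was not tested. Over all regions of the genes, tested or not, the values relative to the tested median were 0.07 for the cholesterol enzymes (50 regions) and -0.05 for the fatty acid enzymes (68 regions).

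LPIN1 encodes lipin-1, a phosphatidate phosphatase that makes diacylglycerol for triglyceride and phospholipid synthesis and also acts as a nuclear cofactor. It had 16 regions, 4 of them tested, and the highest and the third-highest log2 fold changes among the tested regions of the 34 genes. The region at chr2:11743926-11744942, inside the gene and 1.69 kb from the third start, had implied means of 84.2 normalized reads in vehicle and 126 in octanoate. Its log2 fold change was 0.58 ± 0.21 with an unadjusted p of 0.00530 and a DESeq2 adjusted p of 0.126. The region at the third start itself, chr2:11746287-11747392, had 79.2 and 102, a log2 fold change of 0.37 ± 0.22 with an unadjusted p of 0.0964.

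The other 2 tested LPIN1 regions did not share these values. One inside the gene, 10.1 kb from a start, had 0.08 ± 0.27 on a mean of 68.6, and the strongest, 1.83 kb beyond a gene end, had 0.05 ± 0.16 on a mean of 171. The 16 regions had a median of 0.16, with 12 above and 4 below 0, and the regions within 500 kb had a median of 0.22. Among its 4 tested regions the higher values thus stood at and just before the third start, and 2 weaker regions that were not tested had higher ones, 0.81 ± 0.56 on a mean of 14.6 and 0.62 ± 0.49 on a mean of 18.8. Whether the regions of LPIN1 differ from each other was not tested.

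Other genes of the same pathways gave similar counts. Of 24 such genes (further elongation and reduction enzymes, cholesterol steps, SREBP proteases, and sterol export and uptake genes), 23 had a listed region and THRSP had none. They had 117 regions, 21 of them tested, with 0 past the DESeq2 adjusted p of 0.05 (against 1.02% of all tested regions) and 3 at an unadjusted p under 0.05, each with a higher value in octanoate (14.3%, against 14.8%). The share was thus near that of the table, and the 3 regions are given as values only. ABCA1, the cholesterol exporter that is switched on by liver X receptors, had 0.68 ± 0.23 in a region inside the gene, 136 kb from a start, with implied means of 65.9 and 105 and a DESeq2 adjusted p of 0.102. ACAT2, which makes acetoacetyl-CoA, had 0.41 ± 0.15 in a region 9.33 kb outside its span, and starts of other genes there are not given here. HSD17B12, a reductase of fatty acid elongation, had 0.40 ± 0.16 in a region within its span, 123 kb from the nearer span end. The starts of ACAT2 and HSD17B12 were not placed, so whether these regions hold them is not known. The 21 tested regions had a median of 0.23, against 0.19 for the table, and 19 lay above 0. These genes were listed with earlier results of the data known.

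The precision of the table set what could pass. An adjusted p of 0.05 corresponded to a log2 fold change 3.48 standard errors from 0, which is 0.405 at the smallest standard error of these regions, 0.713 at the median tested one and 0.932 at the largest tested one. Estimates below these sizes could not pass.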

How the data were processed

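ATAC-seq was made from 2 vehicle and 2 octanoate libraries, grouped by the sample titles. The authors deposited 1 table. Per the file headers, it gives for each region a mean signal over the 4 libraries in normalized reads, a log2 fold change with its standard error, the Wald score, a p-value and an adjusted p-value. The submitters' processing notes name Trim Galore, cutadapt, FastQC, Bowtie2, Picard, MACS2, featureCounts, DESeq2, bedtools 2.29.1 and hg38. Their roles, a correction for the transposase's cut position and the scaling are not given in the sources used here.

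The deposited score equalled the log2 fold change over its standard error (largest gap 2.31e-14). The deposited adjusted p-value equalled Benjamini-Hochberg adjustment over the 11185 regions whose mean reached 63.8 (largest gap 1.69e-14) and was listed as 1 in the other 114801, which were treated as not tested. No model was refitted, because the table has 0 columns per library. Multiplied by the 4 libraries, each deposited mean is a summed signal. Below a mean of 8, 100.0% of 40448 such sums equalled, to a precision of 1e-06, whole reads times 4 fixed steps of 0.413 to 0.512, whereas 3.75% of all possible values in that range do. Dividing a region's summed signal by the largest and smallest step gave its range of total reads; no step was assigned to a library.

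Region starts were shifted to count from 1. Gene spans and names came from RefSeq GRCh38, and starts from its promoter table. FASN, FDFT1 and SQLE are not in that table, so regions within 1 kb of either end of their spans were used, a choice made after the data were seen. Exons and introns were not analysed here. Implied group means are the pair whose average is the deposited mean and whose ratio is the fold change. The 95% intervals are normal, from the deposited standard error. Medians of surrounding regions cover those within 500 kb of the gene, without the regions of the 34 genes.

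The members and lists were chosen with earlier results of these data known, and the roles after their values were seen; 1 gene of the list of other pathway genes is not reported here. Named regions are the strongest start region of each gene, tested regions with an unadjusted p under 0.05, the 5 highest and 5 lowest tested values and the 3 genes with most regions; other regions named beside them were chosen after their values were seen. Alternatives were the adjustment over all regions, other thresholds, centring, the gene window and the definition of a start. The calculations were tested on simulated data and run in Python 3.11.15 with pandas 2.3.3, numpy 2.4.6, scipy 1.17.1 and matplotlib 3.10.9.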

Additional observations from a re-analysis of the deposited data

How the results depend on the processing

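The count of regions past the threshold stayed at 0 with Benjamini-Hochberg adjustment over all listed regions, at an adjusted p under 0.01, after subtracting the tested median, and with gene spans not extended or extended by 50 kb. At an adjusted p under 0.1 it was 1, the NSDHL start region. Subtracting the tested median of 0.19 turned the median of the 151 regions from 0.17 to -0.02 and that of the start regions from 0.16 to -0.03, by construction. Under the other alternatives these medians lay between 0.14 and 0.20, and between 0.14 and 0.19; adding the gene ends of FASN, FDFT1 and SQLE, chosen after seeing the data, gave 0.14 for the start regions. The same subtraction turned the sign of 11 of the 33 regions at a start or gene end (each gene's strongest, shared ones counted once) and of 14 of the 33 tested regions, from above to below 0; the 5 highest and 5 lowest tested values and HMGCS1 kept theirs. No paired analysis was possible because the deposited table has no value for a single library. For the same reason, leaving out a library, other scalings and other count tests were not run. Regions below 63.8 normalized reads are listed with an adjusted p of 1 and were read as not tested, which leaves 118 of the 151 regions and 10 of the 34 genes outside the test.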
